A study of Homo sapiens with 12 samples.

Results

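HBII-85 is a family of C/D box small nucleolar RNAs (snoRNAs), now named SNORD116, that lies as a tandem array in the imprinted region 15q11-q13. Its copies and those of other imprinted snoRNA families were taken by name from small RNA sequencing of differentiated Mono Mac 6 (MM6) cells. Every snoRNA called HBII-85, HBII-13, HBII-436, HBII-437, HBII-438 or 14q was taken, with HBII-52 left out. This rule used no values, but the members were chosen with earlier results of these data known. The rule found 28 snoRNAs, of which 27 were listed both without and with LPS. Without LPS they were 27 of 287 snoRNAs and of 1231 noncoding RNAs, and with LPS 28 of 287 snoRNAs and of 1139 noncoding RNAs. They comprised 24 copies of HBII-85, HBII-438A and HBII-438B, HBII-13 and, with LPS, 14q(II-11). HBII-436, HBII-437, the other 14q copies and the mature miRNAs encoded beside them were not analysed here.

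MM6 is a human monocytic cell line. All 12 libraries came from MM6 cells differentiated with TGF-β at 1 ng/mL plus calcitriol at 50 nM, for 72 h as the labels give it. The study's figure legend for this sequencing gives the same time, while its methods give a longer one. The 4 groups of 3 libraries each were wild-type cells without LPS, 5-LO knockout (ALOX-5 -/-, 5-LOΔ) cells without LPS, wild-type cells given 1 µg/mL LPS for 6 h, and 5-LOΔ cells given the same LPS. ALOX5 encodes 5-lipoxygenase, which starts leukotriene synthesis, and was knocked out with CRISPR/Cas9. The study worked with a small number of knockout clones, the labels do not say which clone a library came from, and ALOX5 itself, a protein-coding gene, was not measured, so the knockout could not be checked in these tables. The comparison asks whether loss of 5-LO changes small noncoding RNAs, and whether it does so with LPS.

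A C/D box snoRNA is cut out of an intron of its host transcript and is held together by proteins that bind its C box (TGATGA) near the 5′ end and its D box (CTGA) near the 3′ end. Most C/D box snoRNAs guide the 2′-O-methylation of ribosomal RNA, whereas HBII-85, HBII-13 and HBII-438 are orphans without an established rRNA target. The HBII-85 array is transcribed from the paternal chromosome within the long host transcript SNHG14, and its loss is linked to Prader-Willi syndrome. The 14q snoRNAs (SNORD113 and SNORD114) lie in the maternally expressed region 14q32. HBII-85 copies are usually placed in group I (copies numbered up to 9), group II (up to 24) and group III (from 25 on).

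All 28 names were matched to a RefSeq symbol through its synonyms (for example HBII-85-24 to SNORD116-24), and 25 had a position and a sequence in the GENCODE annotation of GRCh37, the hg19 build that the study used. HBII-85-4, HBII-85-22 and HBII-438A were matched by name only. The 22 positioned HBII-85 copies lay on the forward strand of chromosome 15 within 55127 bases, from 25296624 to 25351750. Of these, 19 overlapped an annotated exon of an SNHG14 isoform and 3 lay in its introns. Annotated lengths ran from 83 to 96 bases. Within group I, 8 copies shared 93.8% to 100% of their bases, within group II 10 copies shared 83.7% to 100%, and within group III 4 copies shared 76.0% to 93.8%. Identity between groups ran from 66.7% to 87.6%.

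The sequences below are those on which the reading of the values turns: copies of high level that differ by very few bases, copies whose knockout ratios stood apart, and the other families. They are read from the forward strand, 5′ to 3′, with the C box and the last D box in capitals. The first set belongs to group I, where HBII-85-9 has the sequence of HBII-85-3 and HBII-85-7 that of HBII-85-5.
HBII-85-3: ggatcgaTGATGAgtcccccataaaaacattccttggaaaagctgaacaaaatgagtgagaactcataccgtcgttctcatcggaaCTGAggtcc
HBII-85-5: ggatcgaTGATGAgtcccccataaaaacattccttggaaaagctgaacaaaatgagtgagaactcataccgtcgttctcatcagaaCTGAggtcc
HBII-85-8: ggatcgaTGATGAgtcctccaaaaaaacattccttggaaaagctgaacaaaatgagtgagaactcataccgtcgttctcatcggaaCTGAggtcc
HBII-85-2: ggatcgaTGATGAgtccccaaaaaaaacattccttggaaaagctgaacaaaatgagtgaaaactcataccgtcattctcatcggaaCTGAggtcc
HBII-85-6: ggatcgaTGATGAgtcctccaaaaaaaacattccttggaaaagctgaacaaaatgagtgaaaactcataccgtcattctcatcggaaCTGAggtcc
These lie at chr15:25302007-25302101, chr15:25307480-25307574, chr15:25315579-25315673, chr15:25299357-25299451 and chr15:25310173-25310268. Written as the base of the first copy, its position from the 5′ end of the first copy, and the base of the second, HBII-85-3 and HBII-85-5 differ by G83A, and HBII-85-3 and HBII-85-8 by C18T and T22A. HBII-85-6 has a single inserted base when aligned with HBII-85-2.

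The second set belongs to group II, where HBII-85-19 has the sequence of HBII-85-17.
HBII-85-15: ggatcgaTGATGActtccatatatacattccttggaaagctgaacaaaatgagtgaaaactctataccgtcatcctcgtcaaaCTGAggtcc
HBII-85-17: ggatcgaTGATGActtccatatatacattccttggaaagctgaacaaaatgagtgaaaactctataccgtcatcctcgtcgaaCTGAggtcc
HBII-85-18: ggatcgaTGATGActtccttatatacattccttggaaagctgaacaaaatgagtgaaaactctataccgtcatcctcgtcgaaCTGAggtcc
HBII-85-16: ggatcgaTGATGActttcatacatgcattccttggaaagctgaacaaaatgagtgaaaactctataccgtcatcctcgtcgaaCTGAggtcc
HBII-85-24: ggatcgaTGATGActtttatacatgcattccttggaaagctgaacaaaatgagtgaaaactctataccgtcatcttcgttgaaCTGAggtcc
HBII-85-11: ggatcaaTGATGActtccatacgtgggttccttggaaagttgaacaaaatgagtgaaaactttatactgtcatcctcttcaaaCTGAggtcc
They lie at chr15:25326434-25326525, chr15:25328735-25328826, chr15:25330532-25330623, chr15:25327915-25328006, chr15:25339184-25339275 and chr15:25321076-25321167. HBII-85-15 and HBII-85-17 differ by A81G, HBII-85-17 and HBII-85-18 by A19T, and HBII-85-16 and HBII-85-24 by C18T, C75T and C80T. HBII-85-11 has 1 CTGA, whereas each of the other 21 sequenced HBII-85 copies has 2.

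The third set holds 2 copies of group III and 1 of each other family. HBII-13 (SNORD64) overlaps an exon of SNHG14, HBII-438B (SNORD109B) lies in an intron of SNHG14, and 14q(II-11) (SNORD114-11) lies in an intron of MEG8.
HBII-85-25: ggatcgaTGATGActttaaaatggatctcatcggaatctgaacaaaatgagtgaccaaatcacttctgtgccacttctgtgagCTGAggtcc
HBII-85-29: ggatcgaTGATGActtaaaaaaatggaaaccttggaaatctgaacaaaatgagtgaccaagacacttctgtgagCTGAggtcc
HBII-13: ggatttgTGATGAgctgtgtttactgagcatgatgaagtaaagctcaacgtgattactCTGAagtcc
HBII-438B: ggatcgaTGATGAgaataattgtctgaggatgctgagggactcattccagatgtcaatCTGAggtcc
14q(II-11): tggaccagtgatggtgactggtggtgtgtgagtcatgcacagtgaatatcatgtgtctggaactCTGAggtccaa
Their positions are chr15:25342810-25342901, chr15:25351668-25351750, chr15:25230247-25230313, chr15:25523490-25523556 and chr14:101434448-101434522. TGATGA was searched on the transcribed strand in the whole sequence and CTGA in its last 12 bases. TGATGA was found in 24 of the 25 sequenced members (all but 14q(II-11)) and CTGA in 25 of 25. Over 1460 annotated snoRNA transcripts, which include the H/ACA class that has other boxes, 39.9% held TGATGA and 45.3% held CTGA near the end.

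The tables hold for each RNA the authors' mean of normalized counts over the 3 libraries of a genotype, not the value of each library. The spread between libraries is not in the tables and could be resolved only for some low means, and no test was made from the means, while the p-values of the authors' own comparison, which the tables also hold, were not used. A difference is therefore described by its size and by a 95% interval that covers counting error only, which is narrower than one that holds the spread between cultures. The table without LPS and the table with LPS were normalized separately and share no library, so that ratios of knockout to wild type were taken within each table and levels across tables are only set side by side. Size factors recovered from the small means lay between 0.665 and 1.72, and the means of all snoRNAs summed to 6925340 in wild-type and 7214300 in 5-LOΔ cells without LPS and to 6215620 and 6121430 with LPS. These are bulk libraries, in which fewer cells of a kind and less RNA per cell cannot be told apart.

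HBII-85 was abundant in MM6 cells. In wild-type cells without LPS the copies ranged from rank 42 (HBII-85-16) to rank 252 (HBII-85-4) among the 287 snoRNAs, and 18 of the 24 copies had means above 2000 in each of the 4 groups. Summed over the 24 copies, wild-type cells without LPS held 201882 normalized counts and 5-LOΔ cells 206954, and with LPS the sums were 175458 and 148581. These sums were 2.92%, 2.87%, 2.82% and 2.43% of the sum of all snoRNAs in the same group. Copies of the same sequence cannot be told apart by their reads, so that a sum over copies may count some reads more than once.

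**Figure D1:**
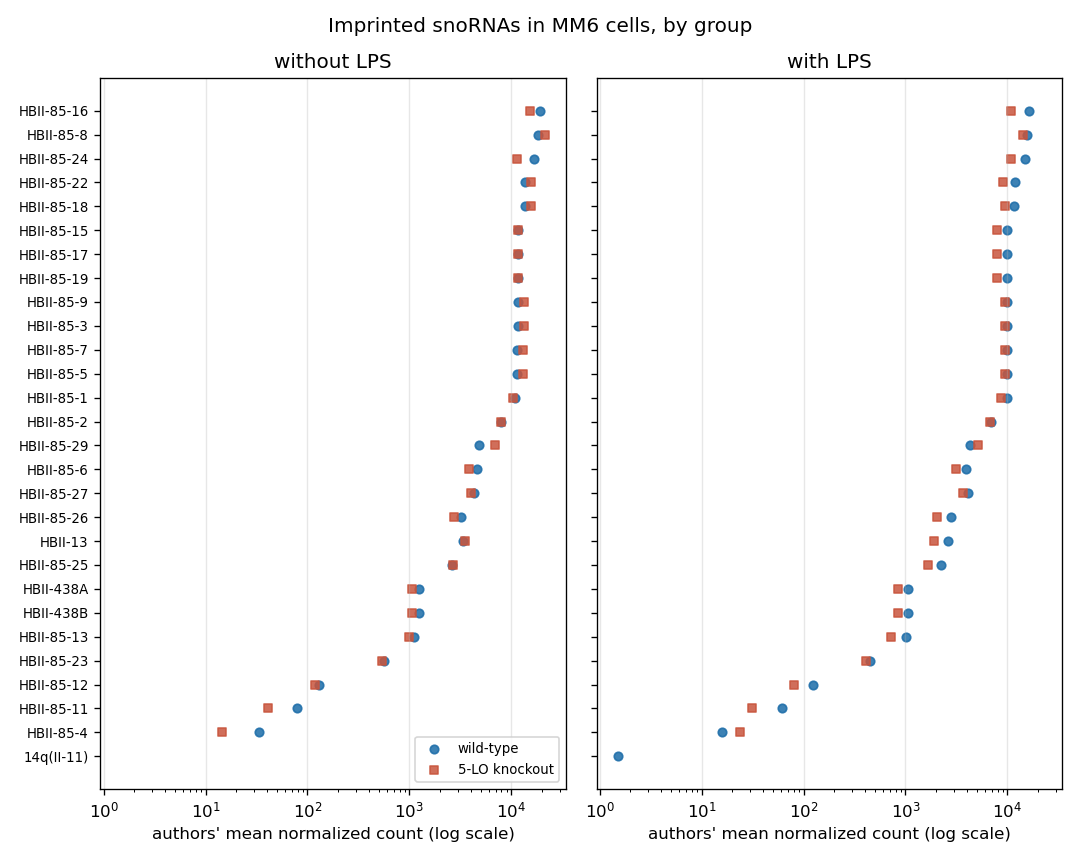
Authors' mean normalized count of each imprinted snoRNA (log axis) without LPS (left) and with LPS (right), circles for wild-type and squares for 5-LO knockout MM6 cells, each point a mean of 3 libraries with no error given. In wild-type cells without LPS 13 of 24 HBII-85 copies lie above 10000, whereas HBII-85-12, HBII-85-11 and HBII-85-4 lie at 129, 79.5 and 33.6, and 14q(II-11) has a single point, at 1.503.

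Per 100 bases of RefSeq length, the level in wild-type cells without LPS was highest for HBII-85-16 at 20559 normalized counts, followed by HBII-85-8 at 18648 and HBII-85-24 at 17595. HBII-85-22 (14619.5) and HBII-85-18 (14350.3) came next. Copies 15, 17, 19, 3, 9, 5 and 7 lay together between 11836 and 12239, HBII-85-1 at 11113 and HBII-85-2 at 8232. Group III was lower, with 5685 for HBII-85-29, 4566 for HBII-85-27, 3284 for HBII-85-26 and 2769.96 for HBII-85-25, and HBII-85-6 of group I stood among them at 4689. The lowest were HBII-85-13 (1169), HBII-85-23 (594), HBII-85-12 (138), HBII-85-11 (84.6) and HBII-85-4 (34.3). HBII-13 stood at 4974, HBII-438A at 1845 and HBII-438B at 1842 on the same scale. The place of the shorter RNAs depends on the scaling by length. Before it, HBII-13 (3332) lay below HBII-85-6 (4595) and HBII-85-27 (4292). Whether neighbours in the order per 100 bases differ beyond the spread between libraries is unknown.

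Levels differed along the array, also between some neighbours. HBII-85-11, HBII-85-12 and HBII-85-13, which follow each other, lay between HBII-85-9 at 11871 and HBII-85-15 at 12239 per 100 bases, and HBII-85-23 at 594 stood before HBII-85-24 at 17595. The 7 bases before the C box read ggatcga in 19 of the 22 sequenced copies, with wild-type means from 558 to 19325. They read ggatcaa in HBII-85-11 and HBII-85-12 and ggaccaa in HBII-85-13, with wild-type means of 79.5, 129 and 1099. Whether these bases bear on the level was not tested.

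**Figure D2:**
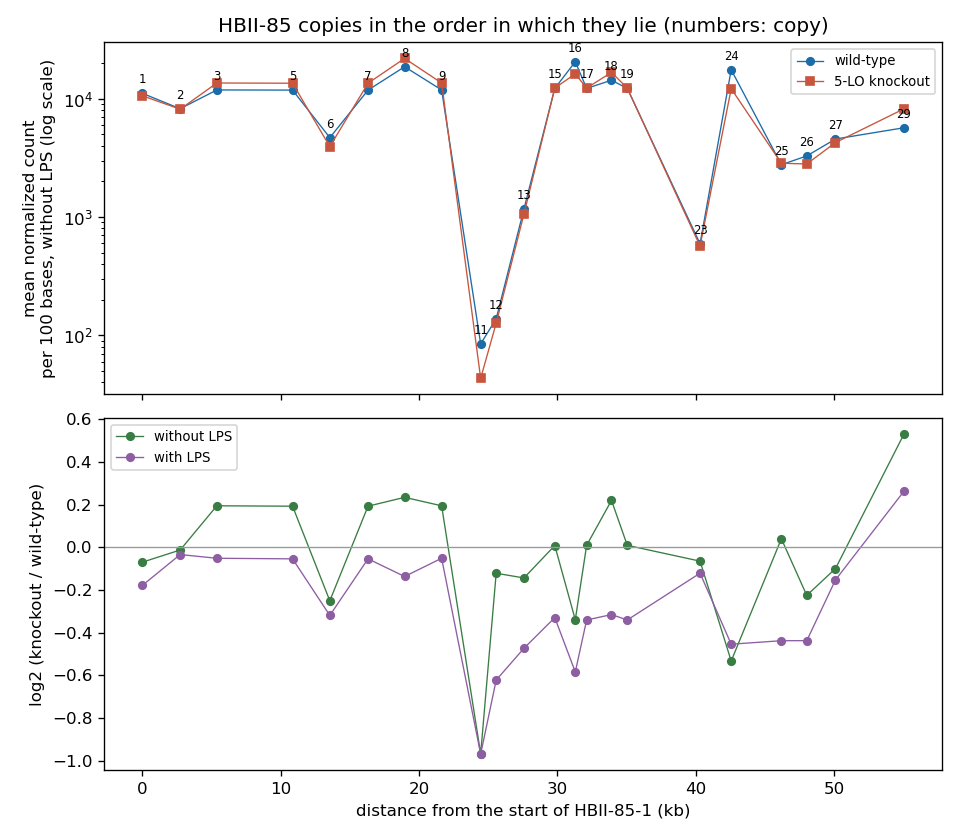
HBII-85 copies against their distance from the start of HBII-85-1 (kb). The upper panel gives the mean normalized count per 100 bases without LPS (log axis; circles wild-type, squares 5-LO knockout; numbers are copies) and dips to 84.6 and 138 for wild-type cells at copies 11 and 12, and the lower panel gives the log2 ratio of knockout to wild type in each table, which among these 22 positioned copies is highest at HBII-85-29 and lowest at HBII-85-11 in both. HBII-85-4 and HBII-85-22, without a position, are not drawn.

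Copies with the same sequence had the same values. HBII-85-3 and HBII-85-9 each had means of 11514.5 in wild-type and 13179.7 in 5-LOΔ cells without LPS, and of 9918 and 9572 with LPS. HBII-85-5 and HBII-85-7 each had 11481 and 13125 without LPS, and 9887 and 9525 with LPS. HBII-85-17 and HBII-85-19 differed by at most 0.7 normalized counts in any group. The reads of such twins cannot be told apart, and whether a read was counted for each copy or divided between them is not stated, so the level of either cannot be told from that of its twin.

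The same held for copies that differ only near the 3′ end. The reads were 75 bases long, and the 9 pairs of copies with the same first 75 bases, from copies 3, 5, 7 and 9 and from copies 15, 17 and 19, differed by at most 0.012 on the log2 scale in any group. HBII-85-3 exceeded HBII-85-5, from which it differs by G83A, by 33.3 normalized counts in wild-type cells and 54.7 in the knockout without LPS and by 30.2 and 47.4 with LPS. HBII-85-15 exceeded HBII-85-17 by 7.2, 0.8, 6.41 and 66.2 in the same order. Set against the means of these copies, these differences were small.

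Among near-identical copies, those that differ early in the sequence were further apart. The 6 pairs at least 97% identical whose first 75 bases differ were apart by 0.23 to 1.10 on the log2 scale over the 4 groups. They set HBII-85-18 against copies 15, 17 and 19, HBII-85-8 against copies 3 and 9, and HBII-85-2 against HBII-85-6, so they are not independent. The 216 less similar pairs ran from 0.0012 to 9.03, so that some copies of different sequence also lay as close as those of the same start. HBII-85-18, which differs from HBII-85-17 by A19T, was 1.17 times its level in wild-type and 1.36 times in 5-LOΔ cells without LPS, and 1.18 and 1.197 times with LPS. HBII-85-8 was 1.57, 1.61, 1.59 and 1.49 times HBII-85-3 in the same order. HBII-85-2 exceeded HBII-85-6 by 3389 and 4053 normalized counts without LPS (wild-type, then 5-LOΔ cells), and by 2955 and 3572 with LPS. For these copies too, reads that do not cover a difference can be shared, and how omiRas assigned them is not stated.

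**Figure D3:**
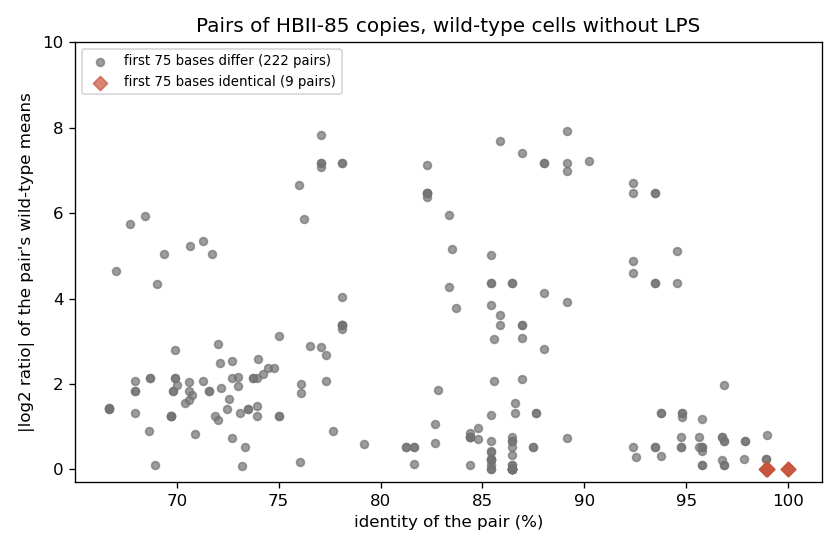
Each point is a pair of the 22 sequenced HBII-85 copies, placed by the percentage of identical bases and by the absolute log2 ratio of their means in wild-type cells without LPS. The 9 pairs with identical first 75 bases (diamonds) lie at 0 to 0.0042, and the 222 other pairs (circles) spread from 0.0012 to 7.92.

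HBII-438A and HBII-438B behaved alike. HBII-438A had means of 1236 in wild-type and 1055 in 5-LOΔ cells without LPS and 1065 and 851 with LPS, and HBII-438B had 1234, 1055, 1064 and 850.078. They were thus 2.32, 0, 0.97 and 0.821 normalized counts apart. Without a sequence for HBII-438A, whether the reads of the pair can be told apart was not examined.

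Without LPS, the HBII-85 family as a whole stood close to its wild-type level in 5-LOΔ cells. The log2 ratio of the sums was 0.04 (counting SE 0.0026), and 12 of 24 copies were lower and 12 higher, with a median of -0.0020. Over all 282 snoRNAs with both means above 0 the median was 0.05 and 43.97% were lower. The direction of the sum depended on the scaling: it was -0.14 when all noncoding RNAs were scaled to an equal sum, which shifts every knockout value by -0.17, -0.02 with snoRNAs at an equal sum and -0.01 with their median ratio at 1, and under each of these 16 copies were lower and 8 higher. Taking 1 copy of each set with the same first 75 bases, 12 of 19 copies were lower and 7 higher (63.2% lower, median -0.07), and the log2 ratio of the sums was -0.00030.

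Single copies ranged more widely than the sum. HBII-85-24 had a mean of 16539.6 in wild-type and 11431 in 5-LOΔ cells, a log2 ratio of -0.53 (95% counting interval -0.55 to -0.51), and HBII-85-16 had 19325 and 15273.5, a log2 ratio of -0.34 (-0.36 to -0.32). On the other side, HBII-85-29, picked after its values were seen, had 4832 and 6981.5, a log2 ratio of 0.53 (0.50 to 0.56). HBII-85-8 had 18088 and 21282 (0.23), HBII-85-18 13489 and 15712 (0.22) and HBII-85-22 13742 and 15755 (0.20). Copies 3 and 9, and 5 and 7, given above, stood at 0.19. HBII-85-15 had 11505 and 11573, HBII-85-17 11498 and 11572 and HBII-85-19 11497.5 and 11573, each with a log2 ratio of 0.01 and an interval that includes 0. The most abundant wild-type copies (HBII-85-16, HBII-85-8 and HBII-85-24) thus did not share a direction.

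The remaining copies lay between these. HBII-85-6 was at -0.25, HBII-85-26 at -0.23, HBII-85-13 at -0.14, HBII-85-12 at -0.12, HBII-85-27 at -0.10, HBII-85-1 at -0.07, HBII-85-23 at -0.06, HBII-85-2 at -0.01 and HBII-85-25 at 0.04 on the log2 scale. By group of copies, the knockout to wild-type sums were 95957 to 87472.5 in group I (0.13), 94578 to 99463 in group II (-0.07) and 16418 to 14946 in group III (0.14). HBII-13 had means of 3332 in wild-type and 3518 in 5-LOΔ cells (0.08), and HBII-438A and HBII-438B stood at -0.23.

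One member was at least 2-fold lower in 5-LOΔ cells without LPS and 0 were at least 2-fold higher, against 10.4% lower and 7.33% higher among the 914 noncoding RNAs of the table with both means above 0. It was HBII-85-4, named for its value, with means of 33.6 and 14.6, a log2 ratio of -1.201 (-1.72 to -0.68). Its knockout mean could be resolved in 1 way into whole reads, 25, 12 and 9 in the 3 libraries (18.7, 12.7 and 12.4 normalized counts), whereas 2 sets of reads gave its wild-type mean (8.004, 30.5 and 62.3, or 38.4, 29.5 and 32.8 normalized counts). Leaving out each knockout library in turn gave log2 ratios from -1.42 to -1.097. Leaving out each wild-type library gave ratios from -1.29 to -1.094 under the second set, but from -1.67 to -0.40 under the first, in which the 2-fold difference rested on the library of the smallest size factor. HBII-85-11 fell just short, with means of 79.5 and 40.7 and a log2 ratio of -0.97 (-1.29 to -0.65), and 3 sets of reads gave its knockout mean, under which leaving out a library moved the ratio to between -2.27 and -0.48. These are the copies of lowest level, and the count of members past 2-fold was 2 under each of the 3 scalings and 0 with a pseudocount of 10.

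With LPS, nearly all copies were lower in 5-LOΔ than in wild-type cells. The log2 ratio of the HBII-85 sums was -0.24 (counting SE 0.0030), 22 of 24 copies were lower, and their median was -0.32. Over 285 snoRNAs the median was 0.00071 and 49.8% were lower. The split of 22 lower and 2 higher copies was the same under the 3 scalings, with sums at -0.31, -0.22 and -0.24, and with 1 copy of each set that shares its first 75 bases 17 of 19 were lower and the sum was at -0.27.

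Group II carried most of this difference. All 11 of its copies were lower in 5-LOΔ cells, and their sum was 65028 against 86121 in wild-type cells, a log2 ratio of -0.41, compared with -0.10 for group I (71055 against 75965.5) and -0.10 for group III (12498 against 13371.5). HBII-85-16 had means of 16368 in wild-type and 10915 in 5-LOΔ cells, a log2 ratio of -0.58 (-0.61 to -0.56), and HBII-85-24 had 14732 and 10753, a log2 ratio of -0.45 (-0.48 to -0.43). HBII-85-22 had 11802 and 9049.75, a log2 ratio of -0.38, and HBII-85-18 had 11707 and 9409, one of -0.32. HBII-85-15 had 9961 and 7927 (-0.33), and HBII-85-17 and HBII-85-19 had 9954 and 7861 (-0.34).

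The abundant group I copies stood nearer to the wild-type level. HBII-85-8 had 15727 and 14306 (-0.14), and copies 3, 5, 7 and 9 stood at -0.05. HBII-85-2 was at -0.03, HBII-85-1 at -0.18 and HBII-85-6 at -0.32. In group III, HBII-85-25 and HBII-85-26 were each at -0.44 and HBII-85-27 at -0.15, while HBII-85-29 was higher in 5-LOΔ cells, with 4264 and 5116 and a log2 ratio of 0.26 (0.23 to 0.30). The less abundant group II copies were at -0.62 (HBII-85-12), -0.47 (HBII-85-13) and -0.12 (HBII-85-23). HBII-13 had 2603 and 1895 (-0.46), and HBII-438A and HBII-438B stood at -0.32.

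With LPS 0 members were at least 2-fold lower or higher, against 11.2% lower and 6.91% higher among 883 noncoding RNAs. HBII-85-11 was again just short, with means of 61.8 and 31.6 and a log2 ratio of -0.97 (-1.33 to -0.60), and passed 2-fold when all noncoding RNAs were scaled to an equal sum. Under the 2 sets of reads that gave its knockout mean, leaving out a library moved the ratio to between -2.85 and -0.41. HBII-85-4 was the other copy that was higher in 5-LOΔ cells, with means of 15.8 and 23.8 and a log2 ratio of 0.59 (0.06 to 1.13). Its knockout mean came from 23, 15 and 29 reads (17.7, 18.0 and 35.7 normalized counts), so that a single library held the highest value. Without that library (the one of the smallest size factor) the log2 ratio was 0.18, and without either of the others 0.76 and 0.77. For its wild-type mean 3 sets of reads were possible, under which leaving out a library gave ratios from 0.32 to 0.88. With 3 libraries against 3 an exact two-sided permutation test cannot give a p below 0.10, and with the wild-type libraries unresolved none was run.

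**Figure D4:**
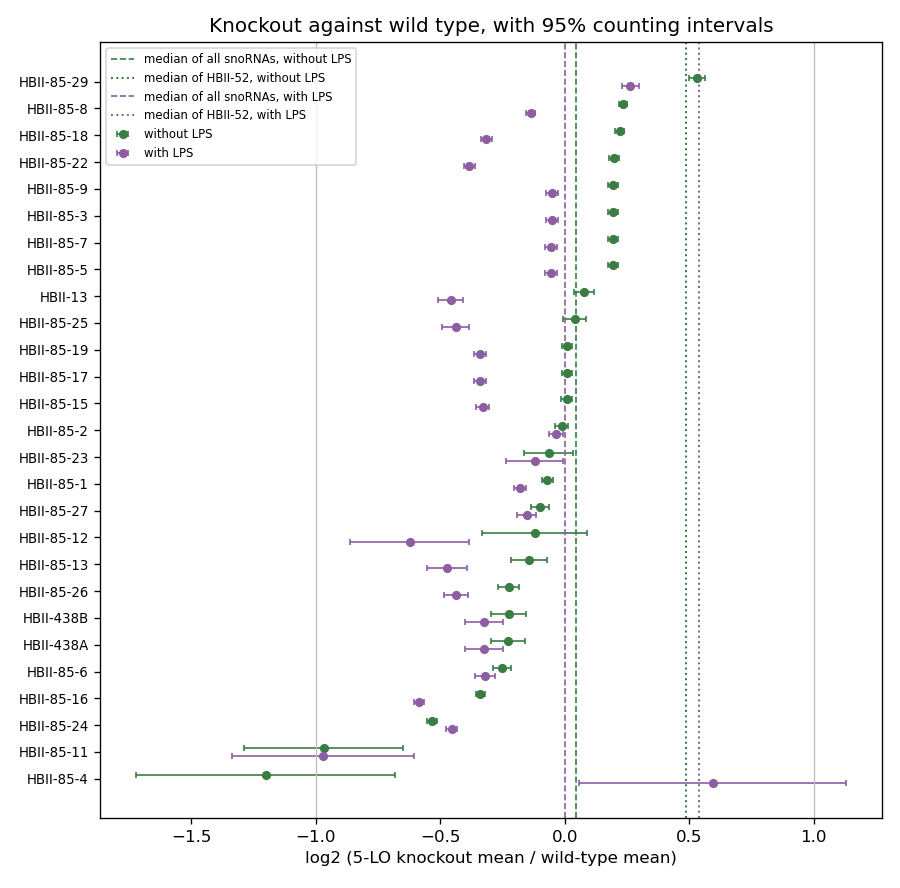
log2 ratio of the 5-LO knockout to the wild-type mean for 27 imprinted snoRNAs without LPS (green) and with LPS (purple), with bars for the 95% counting interval, which leaves out the spread between libraries. Dashed lines mark the median of all snoRNAs (0.05 and 0.00071), dotted lines the median of HBII-52 (0.49 and 0.54), and grey lines a 2-fold difference. For 25 of the 27 the ratio with LPS lies to the left of that without.

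Set side by side, the knockout to wild-type ratio was lower with LPS than without for 25 of 27 members, with a median difference of -0.25 on the log2 scale, and for 141 of 282 snoRNAs (50.0%), with a median difference of 0.00046. For 20 members the 95% counting interval of the difference lay below 0 and for 2 above 0, with copies that share reads counted singly. How many of the 282 snoRNAs would pass the same limit was not counted, so these counts cannot be called unusual. The widest differences among the abundant copies were those of HBII-85-22 (-0.58, from -0.61 to -0.55) and HBII-85-18 (-0.54, from -0.57 to -0.51), and HBII-13 had -0.54 (-0.60 to -0.47). HBII-85-24 (0.08) and HBII-85-4 (1.79) went the other way. Counting the sets of copies with the same first 75 bases once, 20 of 22 were lower with LPS. Under the 3 scalings 18, 20 and 23 of the 27 were lower with LPS, against 33.7%, 36.5% and 42.9% of the 282 snoRNAs. The difference between the tables was not tested, since neither holds single libraries.

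Ratios between copies do not depend on how the mean of a group is scaled. HBII-85-29 and HBII-85-24 were picked because they had the highest and the lowest knockout ratio among the abundant copies without LPS, so their values in that table are a description. HBII-85-29 stood at 0.292 times HBII-85-24 in wild-type and 0.611 times in 5-LOΔ cells without LPS, and at 0.289 and 0.476 times with LPS, a log2 change of 0.72 (95% counting interval 0.68 to 0.76) in the latter. HBII-85-8 stood at 0.936 times HBII-85-16 in wild-type and 1.39 times in 5-LOΔ cells without LPS, and at 0.961 and 1.31 times with LPS, so that HBII-85-16 was the higher in wild-type and HBII-85-8 in 5-LOΔ cells in both tables. Other pairs did not keep their change from table to table. The ratio of HBII-85-24 to HBII-85-16 changed by -0.19 (-0.22 to -0.17) on the log2 scale without LPS and by 0.13 (0.10 to 0.16) with LPS. That of HBII-85-18 to HBII-85-17 changed by 0.21 (0.18 to 0.24) without LPS and by 0.03 (-0.0087 to 0.06) with LPS, and that of HBII-85-8 to HBII-85-3 by 0.04 and -0.09. All 5 pairs were chosen after their values were seen. Their intervals take the counts of both copies as independent, although copies this alike can share reads.

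HBII-52 (SNORD115), the neighbouring array in the same host transcript, showed other values. Its copies with both means above 0 had a median log2 ratio of 0.49 without LPS, with 39 of 40 higher in 5-LOΔ cells, and of 0.54 with LPS, with 40 of 40 higher, beside 12 of 24 and 2 of 24 higher for HBII-85. The difference between the families was not tested. Its level was lower, with a summed mean of 24447 in wild-type cells without LPS against 201882 for HBII-85. Copies of HBII-52 are also alike in sequence, so neither count is one of independent RNAs.

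From 14q32, 14q(II-11) had a mean of 1.503 in the wild type with LPS and was listed at 0 in the knockout with LPS. The wild-type mean came from 3 reads, all in the library of the smallest size factor (0.665), with 0 reads in the other 2 libraries. Since 3 reads is the limit that a count of 0 allows, no difference was detectable at this depth and no fold is given. The cells without LPS were not analysed here for this snoRNA.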

How the data were processed

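Per the labels, 1 µg of total RNA was made into small RNA libraries (Lexogen kit) that were size-selected at 130 to 260 bp, of which 126 bp were linkers, and sequenced as single-end reads of 75 bases. The authors trimmed the adapters, annotated the reads against hg19 with omiRas and deposited, in a table without and a table with LPS, the mean signal (mean of normalized counts, to 6 digits) of each genotype. Not given in the sources used here are the omiRas version, the scaling and the handling of reads that match several copies. The deposited tables also hold the authors' own log2 fold change, p-value and FDR columns, which were not used. Samples were grouped by the title and characteristics in the labels, 3 libraries per group. The planned count test needed single libraries and could not be run.

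Log2 ratios were taken from the means with no pseudocount, and no fold where a mean was at 0. Size factors were found from all means up to 10 (352 to 439 per group), each of which was a whole combination of reads within rounding, and means up to 100 were then searched for reads. A combination found for a mean above 10 is weaker evidence than one for a smaller mean. Counting intervals (95%) assume Poisson reads at these size factors, leave out the spread between libraries, and take reads as independent although no molecular identifiers are shown. For sums over copies and ratios between copies they also take the copies as independent, although copies can share reads. Both steps were tested on simulated data. Sequences were read from GRCh37 at GENCODE v44lift37 positions and names were matched through RefSeq synonyms. Members and neighbour lists were chosen with earlier results of these data known. All members are named, with full values for the 12 of highest mean, for HBII-13 and HBII-438, and for any at least 2-fold apart in both tables (0). Of 87 names of mature miRNAs between DLK1 and DIO3, none gave a value analysed here. The alternatives were 3 scalings, pseudocounts of 0.1, 1 and 10, minimum means of 2 and 10 and leaving out libraries, and, added after seeing the data, 1 copy per shared start, leaving out a library under each of 2 or 3 possible sets of reads, and leaving out copies under a mean of 200. Python 3.11.15, numpy 2.4.6, pandas 2.3.3, pysam 0.24.0, Biopython 1.88 and matplotlib 3.10.9 were used.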

Additional observations from a re-analysis of the deposited data

How the results depend on the processing

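The HBII-85 sum without LPS, 0.04 on the log2 scale as deposited, changed direction with the scaling. It was -0.14 with all noncoding RNAs at an equal sum, -0.023 with snoRNAs at an equal sum and -0.011 with the median snoRNA ratio at 1, and -0.00030 with 1 copy per set sharing its first 75 bases. With LPS, -0.24 as deposited, the sum was -0.31 and -0.22 under the first 2 scalings and -0.27 with 1 copy per set. Pseudocounts of 0.1, 1 and 10, minimum means of 2 and 10 and leaving out copies under a mean of 200 moved neither sum beyond its counting interval. Members at least 2-fold lower without LPS numbered 2 under each of the 3 scalings and 0 with a pseudocount of 10, against 1 as deposited, and with LPS 1 with all noncoding RNAs at an equal sum, against 0. Leaving out 1 wild-type library with LPS gave 14q(II-11) a mean between 0 and 2.25. Of the single members' ratios, 31 stayed within their counting interval with snoRNAs at an equal sum and 23 moved beyond it, since that interval is narrow for abundant copies, and 54 of 54 stayed within it with a pseudocount of 1. The cause was not tested. Leaving out each knockout library of HBII-85-4 gave log2 ratios from -1.42 to -1.097 without LPS and from 0.18 to 0.77 with LPS. Leaving out a library under each possible set of reads, added after seeing the data, gave -1.67 to -0.40 without and 0.32 to 0.88 with LPS for the wild-type mean of HBII-85-4, and -2.27 to -0.48 and -2.85 to -0.41 for the knockout mean of HBII-85-11. For the remaining values no library was left out, since over 3 sets of reads, or means above 100, were not resolved. No paired analysis was possible because the deposited columns are means over libraries and carry no replicate number. Beyond the low means resolved into reads, the spread between libraries is unknown and limits these comparisons.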
